A study of Rattus norvegicus with 18 samples.

Results

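The genes described here are 9 of the transcription factor genes that specify and maintain pancreatic beta cells, followed across 6 treatments of a rat insulin-secreting cell line. They were taken by gene symbol from a list of 10 (Isl1, Insm1, Neurod1, Foxa2, Nkx2-2, Nkx6-1, Pax6, Mafa, Pdx1 and Rfx6). The list was drawn up with earlier results of these data known. Of the 10, 9 had a row among the 13136 genes named in the normalised table. Pdx1 was not analysed here. All 9 passed the filter on low values, a mean log2 signal of at least 6.38, and were among the 9852 genes tested.

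Beta cells are specified and maintained by a small network of DNA-binding proteins that act together on the insulin genes, on the genes of glucose sensing and secretion, and on each other. Foxa2 opens chromatin early in the endoderm. Neurod1, Insm1, Rfx6, Pax6, Nkx2-2, Isl1 and Nkx6-1 act in progenitors or their endocrine descendants, and Mafa acts mainly in the mature beta cell. Lower levels of several of these factors accompany loss of beta-cell identity in rodents under long-lasting high glucose.

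The cells were INS1E, a clonal line derived from a rat insulinoma that secretes insulin in response to glucose, cultured in RPMI medium at 11 mM glucose. They were kept for 72 h with calcidiol, the circulating form of vitamin D that the labels write 25(OH)vitamin D, with calcitriol, the hormonal form written 1,25(OH)2vitamin D, or with neither. Each metabolite was given at 10 nM, and calcitriol carries an additional hydroxyl group. All were then held for 60 min in glucose-free Krebs-Ringer buffer and for another 60 min with or without 22 mM glucose. This gave 6 groups of 3 arrays, called control, glucose, calcitriol, calcitriol plus glucose, calcidiol and calcidiol plus glucose. All 6 groups are the same tumour-derived line, all passed through the glucose-free step, and the control group had no vitamin D metabolite added. Total RNA, 150 ng a sample, was hybridised to an Affymetrix rat gene array, 1 sample an array, and values are log2 signals as the authors normalised them, so that 1 unit is a doubling. Precision is limited by the number of arrays. The labels speak of 3 parallel samples a group and not of separate cultures, so that each p-value measures the spread among these samples alone, and that spread may be technical. In bulk RNA, fewer cells and less RNA per cell cannot be told apart.

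The labelled cell type was checked against marker genes. Of 8 beta-cell markers, the table held 7 and the filter kept 6, with Ins1 at 12.78 to 12.98 and Ins2 at 12.96 to 13.08 over the 18 arrays, while Ucn3, a marker of mature beta cells, was at 5.04 to 8.68 with a mean of 5.98, below the filter. Of 6 alpha-cell markers 4 passed, among them Gcg, the glucagon gene, at 10.20 to 12.16, so the line also carried alpha-cell transcripts. The delta-cell marker Sst, the hormone genes Ppy and Ghrl, and the acinar, fibroblast and immune markers in the table were below the filter, whereas the duct marker Krt7 was at 9.49 to 10.88. None of the tested markers passed for glucose averaged over pretreatments. Array medians ranged from 7.52 to 7.63.

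Arrays numbered 3 stood apart, and some went against their labels. Txnip and Nr4a1, both rapidly glucose-responsive in beta cells, served as a check. On arrays numbered 1 and 2, Txnip was at 10.39 to 10.53 without glucose and 12.18 to 12.33 with it, and Nr4a1 at 6.18 to 6.85 and 9.22 to 10.22. The library labelled calcitriol replicate 3 gave 12.11 for Txnip and 9.33 for Nr4a1, both near or within the stimulated range. The library labelled calcidiol replicate 3 gave 10.44 for Txnip and 8.95 for Nr4a1, the first as without glucose and the second far above the unstimulated range. Conversely, the libraries labelled glucose replicate 3 and calcidiol plus glucose replicate 3 gave Txnip at 10.33 and 10.23, near the unstimulated range, and Nr4a1 at 9.84 and 8.67, above it. Groups were kept as labelled, and results are given with all 18 arrays and with the 12 arrays numbered 1 and 2. That subset leaves out the arrays on which glucose-responsive genes went against their labels, so it is not independent of the glucose response.

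Each of the 9 genes was measured by 1 probe set. By the cytobands in the table, Insm1, Foxa2 and Nkx2-2 lie in 3q41, Neurod1 in 3q24-q32 and Pax6 in 3q32, so 5 of the 9 are on chromosome 3. Isl1 lies in 2q15, Nkx6-1 in 14p22 and Rfx6 in 20q11. RefSeq promoter sequence of the rat assembly GRCr8 was matched by symbol for 6 of the 9, Isl1, Neurod1, Foxa2, Nkx2-2, Nkx6-1 and Pax6. The 250 bases before the start are shown for the members that passed in the glucose comparison and had an entry, with Isl1 and Neurod1 among the members that fell and Foxa2 the member that rose. They read 5′ to 3′ on the gene's own strand, which is the minus strand for all 3, at chr2:49823443-49823692 for Isl1, chr3:84770455-84770704 for Neurod1 and chr3:155927509-155927758 for Foxa2. Capitals mark any exact match, on either strand, to 6 motifs. These include TGACG (the cAMP response half-site), CACGTG (an E-box) and CATATG (an E-box form bound by Neurod1-type factors). The others are TATAAA (a form of the TATA box), CCAAT and TAAT (the homeodomain core).
Isl1: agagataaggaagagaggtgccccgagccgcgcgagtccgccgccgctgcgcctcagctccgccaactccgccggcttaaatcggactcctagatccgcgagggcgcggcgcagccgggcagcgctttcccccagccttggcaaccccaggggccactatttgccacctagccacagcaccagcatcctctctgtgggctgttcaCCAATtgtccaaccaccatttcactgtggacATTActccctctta
Neurod1: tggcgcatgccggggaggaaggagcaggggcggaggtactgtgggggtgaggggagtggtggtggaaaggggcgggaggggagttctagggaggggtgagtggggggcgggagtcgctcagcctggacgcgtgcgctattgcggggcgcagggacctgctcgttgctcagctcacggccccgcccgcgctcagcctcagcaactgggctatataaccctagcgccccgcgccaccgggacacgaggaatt
Foxa2: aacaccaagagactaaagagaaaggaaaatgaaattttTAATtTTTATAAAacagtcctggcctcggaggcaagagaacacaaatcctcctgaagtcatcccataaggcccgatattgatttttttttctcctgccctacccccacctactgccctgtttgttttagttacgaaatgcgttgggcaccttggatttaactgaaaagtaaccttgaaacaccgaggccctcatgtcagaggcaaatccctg

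The 3 sequences differed in base composition and in their matches. GC content was 62.8% for Isl1, 69.2% for Neurod1 and 42.8% for Foxa2, against a median of 51.2% over all promoters in the table. The Isl1 sequence held CCAAT at -45 and TAAT, on the other strand, at -14, counted from the start. The Foxa2 sequence held TAAT at -212 and a pair of overlapping TATAAA matches, 1 on each strand, at -207 and -205. The Neurod1 sequence held no exact match to any of the 6 motifs. Its stretch TATATAA differs from TATAAA and was not searched for. TGACG was found upstream of Nkx2-2 at -25 and of Pax6 at -116, and TAAT upstream of Nkx2-2 at -232 and of Nkx6-1 at -207. Of all 33469 promoters of the same length, 18.2% held TGACG, 5.59% CACGTG, 3.63% CATATG, 12.9% TATAAA, 34.0% CCAAT and 57.0% TAAT, so every motif that matched occurs in at least 12.9% of promoters. Matches are letters in a window and not shown to be sites.

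Glucose for 60 min, averaged over the 3 pretreatments, went with lower Isl1, Insm1 and Neurod1 and higher Foxa2. The Isl1 signal fell by 23.6%, Insm1 fell by 18.9% and Neurod1 fell by 10.5%, while Foxa2 rose by 17.2%. Nkx6-1 and Pax6 were lower without passing the test, and Nkx2-2, Mafa and Rfx6 did not pass under any of the 31 alternatives tried. Of the 9 members 4 passed, 1 higher and 3 lower, where 3.37% of all genes tested passed (1.4% higher and 1.97% lower). Because the members were chosen with earlier results of these data known, these shares do not make an unbiased comparison. The median difference of the members was -0.13, and that of all genes was -0.03. The test was limma's moderated test in 1 model of 6 group means, 9 stimulated against 9 unstimulated arrays, adjusted by Benjamini-Hochberg across the 9852 genes, with 0.05 as the threshold. On the 12 arrays numbered 1 and 2, 6 of 9 members passed, 5 lower and 1 higher, where 9.94% of genes passed (3.76% higher and 6.18% lower). Under other scalings the split of all calls differed, with 138 genes higher and 194 lower as deposited, 200 and 120 after median centring and 200 and 132 after quantile normalisation. The calls depended on single arrays while the differences moved little. Leaving out 1 array at a time gave 0 to 6 members passing, where 0.305% to 8.18% of all genes passed, with Isl1 at -0.45 to -0.34 (limma adjusted p = 0.00455 to 0.064) and Foxa2 at 0.21 to 0.27 (0.00429 to 0.0858). The number was 0 without calcidiol plus glucose 2, calcitriol 1, calcitriol 2, control 1, control 2, glucose 1 or glucose 2. It was 1 without calcidiol 1, calcidiol plus glucose 1 or calcitriol plus glucose 2, and 2 without calcidiol 2, calcitriol plus glucose 1 or control 3.

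**Figure D1:**
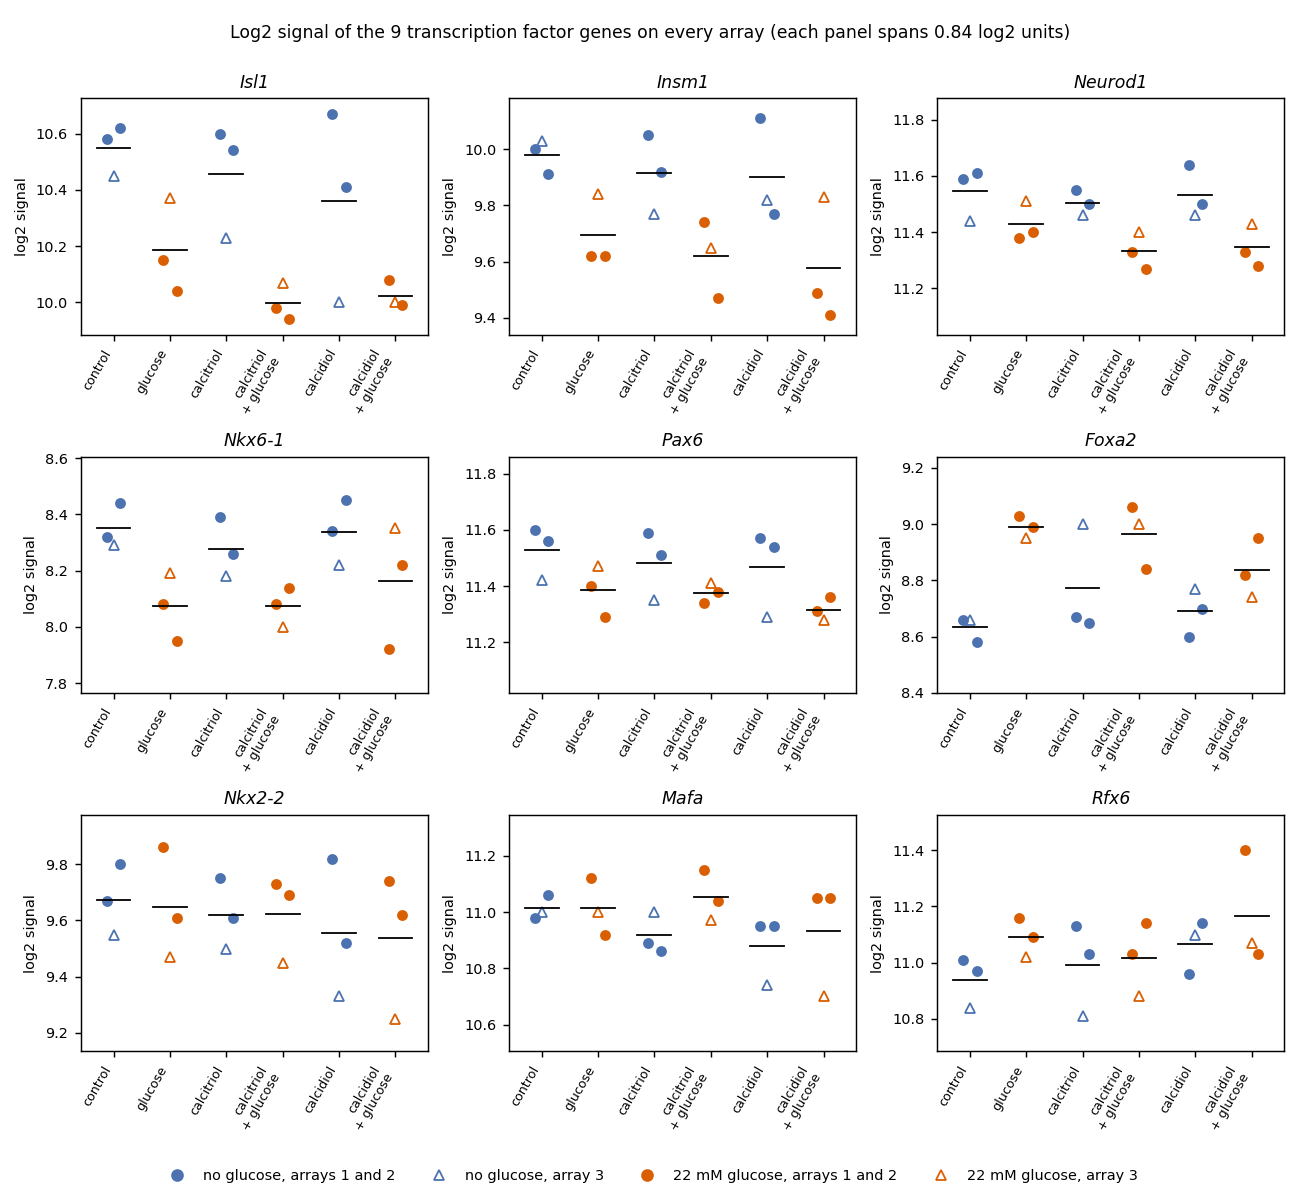
Log2 signal of each of the 9 genes (y axis, each panel spanning 0.84 units) in the 6 groups (x axis). Each point is 1 array, filled circles are arrays numbered 1 and 2, open triangles are arrays numbered 3, blue is no glucose, orange is glucose, and the line is the mean of the 3 arrays. Stimulated Isl1 circles lie at 9.94 to 10.15, below the unstimulated circles at 10.41 to 10.67, and the order is turned for Foxa2.

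Isl1, a LIM-homeodomain factor that acts on the insulin gene and on postnatal beta-cell function, differed more by glucose than any other member. It was at 10.58, 10.62 and 10.45 in control arrays 1 to 3 (10.55 ± 0.09, SD, n = 3) and at 10.15, 10.04 and 10.37 with glucose (10.18 ± 0.17, n = 3). After calcitriol it was at 10.60, 10.54 and 10.23 (10.46 ± 0.20, n = 3), and with glucose at 9.98, 9.94 and 10.07 (10.00 ± 0.07, n = 3). After calcidiol it was at 10.67, 10.41 and 10.00 (10.36 ± 0.34, n = 3), and with glucose at 10.08, 9.99 and 10.00 (10.02 ± 0.05, n = 3). Every unstimulated array numbered 1 or 2 lay above every stimulated array, and the unstimulated arrays calcitriol 3 and calcidiol 3 lay within the stimulated range. The averaged difference was -0.39 ± 0.08 (SE, 95% interval -0.56 to -0.22, limma adjusted p = 0.0228). On the 12 arrays it was -0.54 ± 0.05 (limma adjusted p = 0.000131), a signal that fell by 31.3%.

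Insm1, a zinc-finger factor that recruits histone-modifying repressor complexes and keeps endocrine cells differentiated, was lower with glucose as well. It was at 10.00, 9.91 and 10.03 in control arrays 1 to 3 (9.98 ± 0.06, SD, n = 3) and at 9.62, 9.62 and 9.84 with glucose (9.69 ± 0.13, n = 3). After calcitriol it was at 10.05, 9.92 and 9.77 (9.91 ± 0.14, n = 3), and with glucose at 9.74, 9.47 and 9.65 (9.62 ± 0.13, n = 3). After calcidiol it was at 10.11, 9.77 and 9.82 (9.90 ± 0.19, n = 3), and with glucose at 9.49, 9.41 and 9.83 (9.58 ± 0.22, n = 3). The overlap between stimulated and unstimulated arrays came from glucose 3 and calcidiol plus glucose 3, which were above the lowest unstimulated arrays. The averaged difference was -0.30 ± 0.07 (SE, 95% interval -0.45 to -0.16, limma adjusted p = 0.0328). Over the 12 arrays it was -0.40 ± 0.07 (limma adjusted p = 0.00492), with a gap of only 0.03 between the groups.

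Neurod1, a basic helix-loop-helix factor that binds E-boxes of the insulin promoter, was lower by a smaller amount. It was at 11.59, 11.61 and 11.44 in control arrays 1 to 3 (11.55 ± 0.09, SD, n = 3) and at 11.38, 11.40 and 11.51 with glucose (11.43 ± 0.07, n = 3). After calcitriol it was at 11.55, 11.50 and 11.46 (11.50 ± 0.04, n = 3), and with glucose at 11.33, 11.27 and 11.40 (11.33 ± 0.06, n = 3). After calcidiol it was at 11.64, 11.50 and 11.46 (11.54 ± 0.10, n = 3), and with glucose at 11.33, 11.28 and 11.43 (11.35 ± 0.07, n = 3). Array 3 was the lowest of its group in all 3 unstimulated groups and the highest in all 3 stimulated groups, which narrows the difference. The averaged difference was -0.16 ± 0.04 (SE, 95% interval -0.24 to -0.08, limma adjusted p = 0.0392). Without the arrays numbered 3 it was -0.23 ± 0.04 (limma adjusted p = 0.00668). After centring each array on its median, Neurod1 no longer passed (limma adjusted p = 0.075).

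Foxa2, a forkhead pioneer factor that in mouse islets also acts on the genes of insulin secretion, was the only member that rose. It was at 8.66, 8.58 and 8.66 in control arrays 1 to 3 (8.64 ± 0.05, SD, n = 3) and at 9.03, 8.99 and 8.95 with glucose (8.99 ± 0.04, n = 3). After calcitriol it was at 8.67, 8.65 and 9.0 (8.77 ± 0.20, n = 3), and with glucose at 9.06, 8.84 and 9.0 (8.96 ± 0.11, n = 3). After calcidiol it was at 8.60, 8.70 and 8.77 (8.69 ± 0.08, n = 3), and with glucose at 8.82, 8.95 and 8.74 (8.83 ± 0.11, n = 3). Without vitamin D all 3 glucose arrays lay above all 3 control arrays, and the array calcitriol 3 lay among the stimulated ones. Separate ranges without vitamin D were not particular to Foxa2. Isl1, Insm1 and Nkx6-1 had them in the lower direction and Rfx6 in the higher, and the share of all genes was not counted. The averaged difference was 0.23 ± 0.05 (SE, 95% interval 0.12 to 0.34, limma adjusted p = 0.0332). In the 12 arrays it was 0.30 ± 0.05 (limma adjusted p = 0.00482), a signal 23.3% higher.

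Nkx6-1, a homeodomain factor that represses alternative endocrine fates and sustains glucose-stimulated secretion, was lower with glucose and near the threshold. Its lowest, median and highest values were 8.18, 8.32 and 8.45 on the 9 unstimulated arrays and 7.92, 8.08 and 8.35 on the 9 stimulated ones. The highest stimulated value was calcidiol plus glucose 3, and the ranges overlapped. The averaged difference was -0.22 ± 0.06 (SE, limma adjusted p = 0.0528). A block on replicate number brought it past the threshold (limma adjusted p = 0.0342), where 9.55% of genes passed, and with the 12 arrays (-0.30 ± 0.06, limma adjusted p = 0.0127).

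Pax6, a paired-box and homeodomain factor needed for islet hormone gene expression, had lowest, median and highest values of 11.29, 11.54 and 11.60 without glucose. With glucose they were 11.28, 11.36 and 11.47. The array calcidiol 3 gave the lowest unstimulated value, and the ranges overlapped. The averaged difference was -0.13 ± 0.05 (SE, limma adjusted p = 0.134), and with the 12 arrays -0.21 ± 0.04 (limma adjusted p = 0.01).

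The other members gave smaller differences. Nkx2-2, an NK-homeodomain factor that keeps beta cells from taking other islet fates, was at 9.33, 9.61 and 9.82 (lowest, median and highest) without glucose. It was at 9.25, 9.62 and 9.86 with it, ranges that overlapped almost completely. Its averaged difference was -0.02 (95% interval -0.19 to 0.16, limma adjusted p = 0.939), and 0.01 with the 12 arrays. On Nkx2-2 the array numbered 3 was the lowest of its group in 6 of 6 groups, whatever the treatment. No other member showed this, and its share among all genes was not counted. Mafa, a basic leucine zipper activator of the insulin gene in mature beta cells, differed by 0.06 (limma adjusted p = 0.558), and by 0.11 on the 12 arrays (limma adjusted p = 0.191). Its 9 unstimulated arrays lay at 10.74 to 11.06 and the stimulated ones at 10.70 to 11.15. Rfx6, a winged-helix factor needed for islet cell formation and for secretion genes, differed by 0.09 (limma adjusted p = 0.445), and by 0.10 on the 12 arrays (limma adjusted p = 0.406). Its unstimulated arrays lay at 10.81 to 11.14 and its stimulated ones at 10.88 to 11.40.

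The ranges of the arrays showed how far the arrays numbered 3 bear on these results. With all 18 arrays the stimulated and unstimulated ranges overlapped for all 9 members, and they were separate for 0.0812% of all genes tested. Among the 12 arrays they were separate for 6 members, Isl1, Insm1, Neurod1, Nkx6-1 and Pax6 lower and Foxa2 higher, and for 8.18% of all genes. When all arrays numbered 1, or all numbered 2, were left out instead, 0 members and 0.0% of genes passed the glucose test in limma. At an unadjusted p under 0.05 there were 650 and 842 of the 9852 genes. In the 12 arrays the gaps were 0.26 for Isl1, 0.12 for Foxa2, 0.11 for Pax6, 0.10 for Neurod1, 0.04 for Nkx6-1 and 0.03 for Insm1. Array 3 lay further from the mean of arrays 1 and 2 than those lay from each other for 9 of 9 members in the calcitriol group and 8 of 9 in the glucose group. This held for 7 of 9 in calcitriol plus glucose, for 6 of 9 in each calcidiol group and for 5 of 9 in the control group. No such count was made over all genes, so these numbers do not set the members apart. Plotted against Nr4a1, Isl1 and Foxa2 show where the arrays numbered 3 lie.

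**Figure D2:**
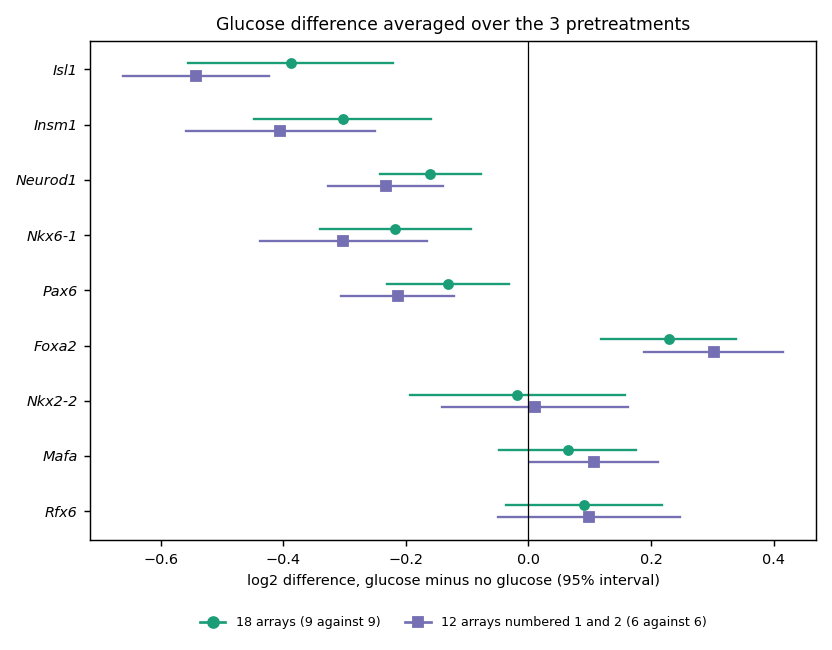
Log2 difference of each gene, glucose minus no glucose, averaged over the 3 pretreatments (x axis), with 95% intervals from limma. Circles use 18 arrays and squares the 12 arrays numbered 1 and 2. For every gene but Nkx2-2 the 12-array difference lies further from 0 than the 18-array one, as for Isl1 at -0.54 against -0.39.

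**Figure D3:**
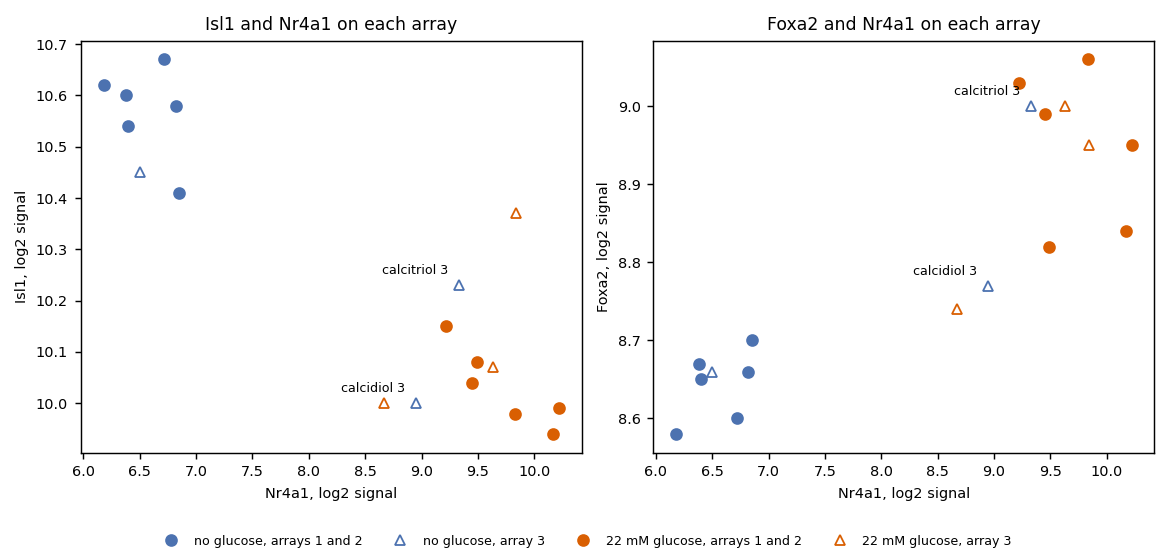
Log2 signal of Isl1 (left) and Foxa2 (right) against that of Nr4a1, 1 point an array, with arrays numbered 3 as open triangles, blue without and orange with glucose. The arrays calcitriol 3 and calcidiol 3, labelled as unstimulated, have Nr4a1 at 9.33 and 8.95 and Isl1 at 10.23 and 10.00, while the other 7 unstimulated arrays have Nr4a1 at 6.18 to 6.85 and Isl1 at 10.41 or more.

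Within each pretreatment the glucose comparison asks whether the response was there with and without vitamin D. Each used 3 arrays against 3. With 18 arrays 0 members passed in any of the 3 comparisons, and 0.0% of all genes did in limma. At an unadjusted p under 0.05 there were 4 members without vitamin D, 4 after calcitriol and 3 after calcidiol. Of the 9852 genes 599, 972 and 459 were under it, in the same order. Isl1 differed by -0.37 ± 0.14 (SE) without vitamin D, by -0.46 ± 0.14 after calcitriol and by -0.34 ± 0.14 after calcidiol (limma adjusted p = 0.769, 0.395 and 0.962). Foxa2 differed by 0.35 ± 0.09, 0.19 ± 0.09 and 0.14 ± 0.09 in the same order (limma adjusted p = 0.568, 0.503 and 0.974). Both genes kept their direction in all 3 pretreatments.

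The 12 arrays, 2 against 2 in each comparison, are a subset that is not independent of the glucose response. On them Isl1 fell in all 3 pretreatments and no other member passed. It differed by -0.51 ± 0.09 (SE, limma adjusted p = 0.0283) without vitamin D, where 1.06% of genes passed (0.883% higher and 0.173% lower). It differed by -0.61 ± 0.09 (limma adjusted p = 0.00656) after calcitriol, where 1.89% of genes passed (1.31% higher and 0.579% lower), and by -0.51 ± 0.09 (limma adjusted p = 0.0253) after calcidiol, where 1.35% did (1.04% higher and 0.315% lower). Adding the replicate number as a block brought in Insm1 after calcitriol (-0.38, limma adjusted p = 0.0391), with 4.54% of genes passing, and after calcidiol (-0.49, limma adjusted p = 0.0159), with 2.45% passing. Foxa2 was higher by 0.39, 0.29 and 0.23 in the 3 pretreatments without passing (limma adjusted p = 0.0875, 0.159 and 0.314). Neurod1 was lower by similar amounts throughout, at -0.21, -0.22 and -0.27, also without passing. Mafa differed by -0.00 without vitamin D, by 0.22 after calcitriol and by 0.10 after calcidiol.

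**Figure D4:**
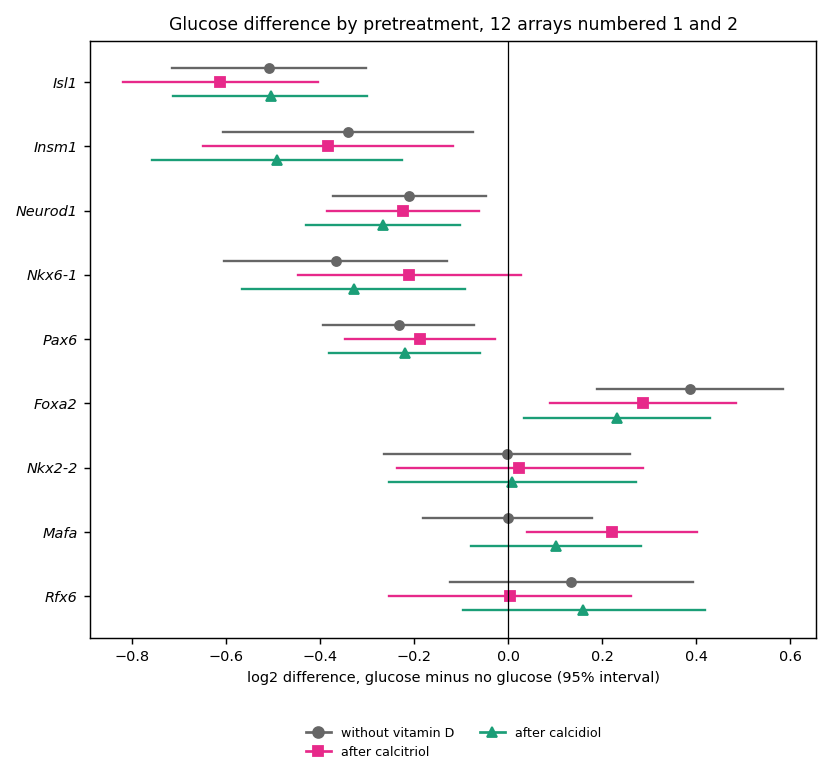
Log2 difference of each gene, glucose minus no glucose, on the 12 arrays numbered 1 and 2 (x axis), with 95% intervals from limma, without vitamin D (circles), after calcitriol (squares) and after calcidiol (triangles). The Isl1 intervals lie below 0 in all 3, and the 3 pretreatments overlap for every gene.

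The differences between pretreatments were tested as interactions, and 0 members passed in either, with 0.0% of all genes passing. The change of the glucose response after calcitriol ranged over the members from -0.16 for Foxa2 (95% interval -0.43 to 0.11) to 0.14 for Mafa (-0.14 to 0.41). After calcidiol it ranged from -0.21 for Foxa2 (-0.48 to 0.06) to 0.10 for Nkx6-1 (-0.20 to 0.40). No member had an unadjusted p under 0.05 in these tests, with 18 or with 12 arrays. With 18 arrays 66 and 32 of the 9852 genes did. On the 12 arrays the Foxa2 values were -0.10 for calcitriol and -0.15 for calcidiol, that of Mafa for calcitriol was 0.22, and that of Nkx6-1 for calcidiol was 0.04. The intervals bound the change in response only for these samples as labelled, whose spread may be technical.

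Ordered by group mean, 6 of the 9 members had the stimulated groups apart from the unstimulated ones, as did 32.5% of all genes tested (8.87% higher and 23.6% lower). For Isl1, Insm1, Neurod1, Nkx6-1 and Pax6 all 3 unstimulated groups were above all 3 stimulated groups, and for Foxa2 all 3 stimulated groups were above. Isl1, for example, ran from 10.55 in control through 10.46 with calcitriol, 10.36 with calcidiol and 10.18 with glucose to 10.02 with calcidiol plus glucose and 10.00 with calcitriol plus glucose. Neighbouring groups in this order did not separate. For each of the 9 members, 0 of the 5 neighbouring pairs had ranges that did not overlap. How often neighbouring pairs separate over all genes was not counted.

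The vitamin D comparisons ask whether either metabolite altered the members over 72 h. Averaged over both glucose states, 0 of 9 members passed for calcitriol, for calcidiol or for calcitriol against calcidiol, and 0.0% of all genes passed in each with 18 arrays. None of the 9 members had an unadjusted p under 0.05 in these tests, where 60, 660 and 291 of the 9852 genes did. Within each glucose state 0 members passed as well, in all 6 comparisons, with 0.0% of all genes passing in each. The 12 arrays gave 0 members in any of these 9 comparisons. On them 0.0305% of genes passed for calcitriol and for calcitriol against calcidiol averaged over glucose states. Calcitriol gave 0.0203% in each glucose state, calcitriol against calcidiol 0.0102% without and 0.0203% with glucose, and calcidiol 0.0% throughout. The comparisons of calcitriol and of calcidiol with no vitamin D share the control and glucose arrays.

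The sizes of these differences were small beside their intervals. Calcitriol differences ranged from -0.14 for Isl1 (95% interval -0.34 to 0.06) to 0.06 for Foxa2 (-0.08 to 0.19). Calcidiol differences ranged from -0.18 for Isl1 (-0.38 to 0.03) to 0.10 for Rfx6 (-0.05 to 0.26). The Isl1 values rested partly on the arrays numbered 3, since with the 12 arrays they were -0.08 for calcitriol and -0.06 for calcidiol. For Insm1, another member that fell with glucose, calcitriol gave -0.07 (-0.25 to 0.10) and calcidiol -0.10 (-0.28 to 0.08), against 0.01 and -0.09 on the 12 arrays.

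Calcitriol and calcidiol were compared with each other at the same dose, 10 nM, and the same time. Averaged over glucose states the differences, calcitriol minus calcidiol, ranged from -0.11 for Rfx6 (95% interval -0.27 to 0.04) to 0.11 for Foxa2 (-0.03 to 0.24). Over the 9 members every interval lay between -0.27 and 0.29. The additional hydroxyl group thus went with no difference that passed. Each member's own interval bounds the difference only for these samples as labelled, as for Neurod1 at -0.02 (-0.12 to 0.08). Over the 12 arrays the Foxa2 and Rfx6 differences were 0.04 and -0.05.

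**Figure D5:**
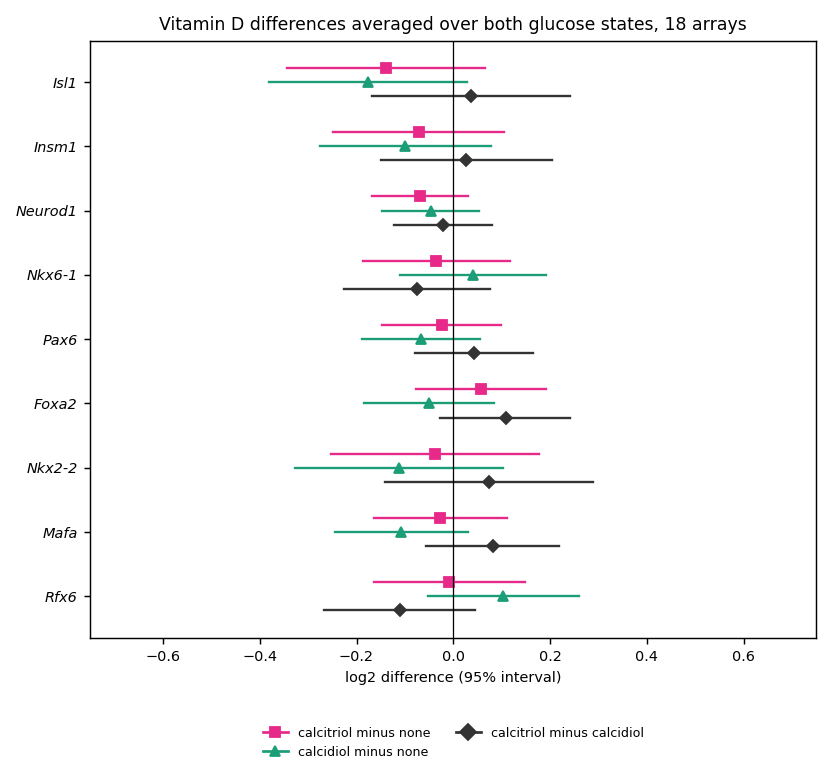
Log2 difference of each gene (x axis) averaged over both glucose states, with 95% intervals from limma on 18 arrays, for calcitriol minus none (squares), calcidiol minus none (triangles) and calcitriol minus calcidiol (diamonds). Every interval includes 0, and the largest difference is that of Isl1 with calcidiol at -0.18.

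Other genes of the same network were read from 3 lists, in the glucose comparison averaged over pretreatments. Of 28 further islet transcription factors 21 were in the table and 14 were tested. Of these 1 fell and 0 rose, where 3.37% of all genes passed, so the count is near the background. The median difference was -0.07, and that of all genes was -0.03. The gene that fell was Sox4, an HMG-box factor of endocrine differentiation, at 8.76 ± 0.11 (SD, n = 9) without and 8.50 ± 0.13 with glucose. It differed by -0.27 ± 0.06 (SE, limma adjusted p = 0.0332), and by -0.33 with the 12 arrays (limma adjusted p = 0.00204). Gata6, a zinc-finger factor of pancreas formation, passed with the 12 arrays (-0.34, limma adjusted p = 0.0208), where 9.94% of genes did. With 18 arrays it did not (-0.24, limma adjusted p = 0.0852). Hnf4a, a nuclear receptor of liver and islet, differed by -0.15 (limma adjusted p = 0.114), and by -0.18 on the 12 arrays (limma adjusted p = 0.0526).

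Of 24 cofactors and regulators of these factors 21 were in the table and all 21 were tested. With 18 arrays 1 fell and 0 rose, near the 3.37% of all genes, with a median difference of -0.04. On the 12 arrays 1 fell and 2 rose, where 9.94% of genes passed. Id3, a helix-loop-helix protein without a DNA-binding region that sequesters the partners of Neurod1-type factors, was at 6.99 ± 0.37 (SD, n = 9) without and 6.39 ± 0.22 with glucose. It differed by -0.60 ± 0.13 (SE, limma adjusted p = 0.03), and by -0.88 with the 12 arrays (limma adjusted p = 0.000184). Its relative Id1 went the other way, by 0.48 ± 0.16 with 18 arrays (limma adjusted p = 0.114) and 0.70 ± 0.10 with the 12 (limma adjusted p = 0.00169). The stimulated Id3 mean of 6.39 and the unstimulated Id1 mean of 6.43 lay near the filter of 6.38. Ldb1, the adaptor that binds the LIM domains of Isl1, differed by 0.14 (limma adjusted p = 0.0845). It rose by 0.21 on the 12 arrays (limma adjusted p = 0.0106), while Isl1 fell in the same comparison.

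Of 25 genes known as targets of these factors 22 were in the table and 19 were tested. Of these 1 fell and 0 rose, near the 3.37% of all genes, and the median difference was 0.02 where that of all genes was -0.03. Kcnj11, the pore subunit of the ATP-sensitive potassium channel that couples glucose metabolism to secretion, was at 10.10 ± 0.07 (SD, n = 9) without and 9.87 ± 0.10 with glucose. It differed by -0.23 ± 0.04 (SE, limma adjusted p = 0.0201), and by -0.29 on the 12 arrays (limma adjusted p = 0.00479). On those 12, where 9.94% of genes passed, Syt4, a synaptotagmin of secretory granules, rose (0.17, limma adjusted p = 0.0367). The insulin genes Ins1 and Ins2 each differed by 0.02 (limma adjusted p = 0.756 and 0.773), Slc2a2, the glucose transporter, by 0.02 (limma adjusted p = 0.849), and Iapp, islet amyloid polypeptide, by 0.04 (limma adjusted p = 0.721). In the vitamin D comparisons averaged over glucose states, 0 genes of the 3 lists passed with 18 or with 12 arrays.

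The named genes whose log2 signal ran most nearly with each passing member over the 18 arrays are given as a description, since all arrays divide by stimulation. For Isl1 they were Rbl1 (Pearson r = 0.953, Spearman rho = 0.94), Hist2h2be (0.933, 0.895) and Shroom3 (0.915, 0.889). For Insm1 they were Zfp212 (0.969, 0.965), Cdt1 (0.952, 0.959) and Senp7 (0.944, 0.95). For Neurod1 they were Rhob (0.925, 0.955), Klf6 (0.915, 0.922) and Ier5 (0.912, 0.907), and for Foxa2 they were Mafk (0.926, 0.87), Mir23b (0.905, 0.804) and Uap1l1 (0.903, 0.872). No member was among the 3 of another member.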

How the data were processed

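Total RNA of 18 INS1E samples was hybridised to Affymetrix Rat Gene ST arrays, 3 in each of 6 groups, grouped by the sample labels. Values were deposited by the authors as normalised log2 signals. RMA and Partek are named in the submitters' processing notes, with no settings. The attached table held 17017 probe sets, 14698 with 1 gene symbol, and the series matrix 29214 with identical shared values. The probe set with the highest mean stood for a gene, and the lowest 25% of genes by mean were left out.

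The log2 values were tested with limma 3.58.1 (R 4.3.3; lmFit, eBayes) in 1 model of 6 group means, giving 15 contrasts with Benjamini-Hochberg adjustment over 9852 genes. Matplotlib 3.10.9, numpy 2.4.6 and pandas 2.3.3 ran under Python 3.11.15. Scripts were tested on simulated data. The members, gene lists and comparisons were chosen with earlier results of these data known. Named genes were the members, the list genes that passed or had the 3 smallest p, the 3 genes most correlated with each passing member, and Txnip and Nr4a1. Some genes picked by this rule are not reported here.

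Same-numbered arrays deviated together, with every pair correlation above 0.1 in 8 of 9 comparisons and a lowest value of 0.0533 for calcidiol without glucose. The pairing comes from the data and not from the labels. Alternatives were the replicate block, the 12 arrays numbered 1 and 2, other filters, normalisations, probe set rules and variance settings, array weights, and leaving out arrays.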

Additional observations from a re-analysis of the deposited data

How the results depend on the processing

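For glucose averaged over pretreatments, 4 members passed, and leaving out 1 array gave 0 to 6. The number was 5 with the replicate block, 6 with array weights (11.9% of all genes) or the 12 arrays numbered 1 and 2, and 3 after median centring. It was 1 when every probe set of the series matrix was tested (0.493% of probe sets). It was 0 when all arrays numbered 1, or all numbered 2, were left out, 2 alternatives chosen after seeing the data. The fits on the 12 arrays, also among the alternatives, leave out arrays on which glucose-responsive genes went against their labels. They are thus not independent of the glucose response. Of 31 alternatives Isl1 passed in 21, Insm1 in 17, Foxa2 in 16, Neurod1 in 15, Nkx6-1 in 8, Pax6 in 4 and the other members in 0, and each member but Nkx2-2 kept its direction throughout. Nkx2-2, at -0.02, turned to 0.011 with the 12 arrays, with or without the block, and to 0.013 after median centring, and ranged from -0.055 to 0.030 with 1 array left out. The replicate block changed no other call with 18 arrays. Within pretreatments, where 0 members passed, the 12 arrays gave 1 in each, the 12 arrays with the block 1 without vitamin D, 2 after calcitriol and 2 after calcidiol, and array weights 6 without vitamin D and 2 after calcitriol, where 10.7% and 3.79% of all genes passed. Vitamin D comparisons and interactions gave 0 under every alternative. The cause was not tested. The fit of array weights did not fully converge. Beyond signal, the number of arrays limits what can be detected.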
